A study of Mus musculus with 18 samples.

Results

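Fibroblast growth factor (Fgf) signalling was read from 7 genes in the cortex of mouse embryos that lack the transcription factors Dmrt3, Dmrt5 or both. The genes were taken by name and are the ligands Fgf8, Fgf17, Fgf18 and Fgf15 and the receptors Fgfr1, Fgfr2 and Fgfr3. All 7 were found among the 38355 genes counted, and 7 of 7 passed the filter on low counts. RNA came from cortical tissue of C57BL/6 embryos at E12.5. There were 5 libraries of the double knockout (double KO, genotype Dmrt3-/-;Dmrt5-/-), 4 of the Dmrt5 knockout (Dmrt5 KO, Dmrt5-/-, replicates 1, 2, 4 and 5), 5 of the Dmrt3 knockout (Dmrt3 KO, Dmrt3-/-) and 4 of wild type (WT). The labels name no Cre or other agent, and do not say whether a library is 1 embryo or a pool. The design asks what each factor affects alone and what changes when both are missing.

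Secreted Fgf ligands bind receptor tyrosine kinases together with heparan sulfate, and the bound receptor signals through the Ras-MAP kinase route. Fgf8, Fgf17 and Fgf18 form one ligand subfamily and are made at the rostral midline of the forebrain, a patterning centre that sets the front-to-back layout of the cortex. Fgf15, the mouse counterpart of human FGF19, is also made in the early forebrain and belongs to the endocrine subfamily. Fgfr1, Fgfr2 and Fgfr3 are the receptors of cortical progenitors, and Fgfr3 is known for a high caudal and low rostral level in the cortex.

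The libraries held 19602718 to 33072896 counts. The transcripts of the targeted genes followed the labels. Dmrt3 stood at 0.157 ± 0.18 CPM (read counts scaled to the size of the library) in the double KO, 41.5 ± 7.97 in Dmrt5 KO, 0.308 ± 0.0653 in Dmrt3 KO and 56.9 ± 4.1 in WT (SD). Dmrta2, the current symbol of Dmrt5, stood at 3.55 ± 1.34 CPM in the double KO, 10.7 ± 9.64 in Dmrt5 KO, 219 ± 53.7 in Dmrt3 KO and 194 ± 29.7 in WT. Dmrt5 KO replicate 1 was the highest of its genotype with 25.1 CPM of Dmrta2, and leaving it out left 0 of 7 Fgf genes called against WT, as with it. Markers of the cortex were present in every library, with 7 pallial progenitor genes summing to 1125 to 1304 CPM in the double KO, 1599 to 1654 in Dmrt5 KO, 1914 to 2178 in Dmrt3 KO and 2000 to 2242 in WT. Genes that mark the subpallium were also present: 7 markers of the lateral ganglionic eminence summed to 1178 to 2251 CPM in the double KO, 1082 to 1407 in Dmrt5 KO, 558 to 960 in Dmrt3 KO and 533 to 770 in WT, with no marker at 0, and whether they came from dissected subpallium or from cells within the cortex was not tested.

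Libraries also differed in how counts were shared between short and long genes. This was measured as a gene length slope, the slope of a library's log2 CPM, relative to each gene's mean, on log2 exon length over all tested genes. Double KO replicate 5 (slope 0.33) and WT replicate 4 (0.24) lay at the long-gene end and WT replicate 2 (-0.20) at the short-gene end, while the other 15 libraries lay between -0.12 and 0.10. Results that rest on these 3 libraries are given below with and without them.

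The double KO held more Fgf15 and less Fgfr3 transcript than WT, and the other 5 genes were not called in any comparison. Of the 7 genes, 1 rose and 1 fell in the double KO against WT, where 6.23% of all 16236 tested genes were called (2.42% higher and 3.81% lower; edgeR's quasi-likelihood test, Benjamini-Hochberg adjusted p under 0.05). In Dmrt5 KO against WT 0 of 7 were called by edgeR and 0 by DESeq2, 3 had an unadjusted p under 0.05, as did 11.3% of all tested genes, and the share called among all genes was 1.03% (0.339% higher and 0.69% lower). In Dmrt3 KO against WT 0 of 7 were called by both tools, 1 had an unadjusted p under 0.05, as did 7.16% of all tested genes, and the share called was 0.0123%. The median log2 fold change of the 7 genes was -0.01 in the double KO, 0.29 in Dmrt5 KO and -0.04 in Dmrt3 KO, beside 0.01, -0.02 and -0.00 over all tested genes. These comparisons share the WT libraries. For none of the 7 genes did the libraries of a KO lie wholly apart from those of WT, whereas 5.97% of all tested genes did so in the double KO, 8.73% in Dmrt5 KO and 2.37% in Dmrt3 KO.

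**Figure D1:**
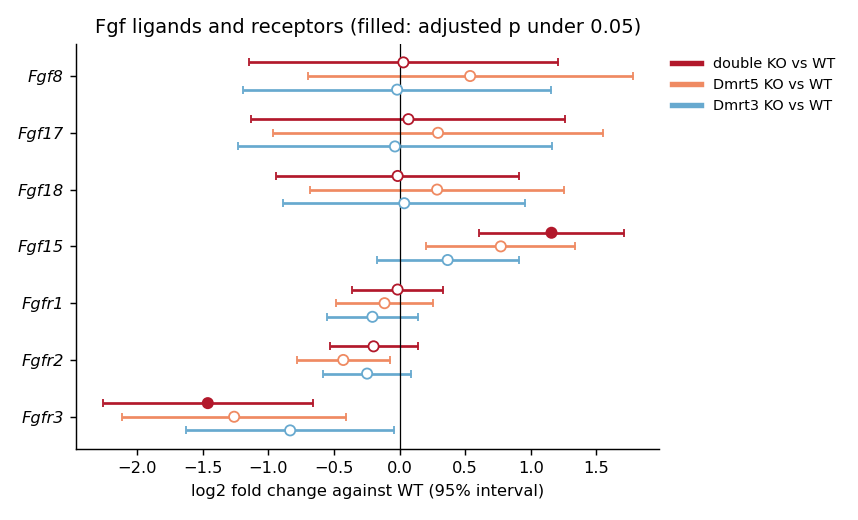
Log2 fold change of each Fgf gene against WT (x axis) in the double KO, Dmrt5 KO and Dmrt3 KO, with 95% intervals; filled points had an adjusted p under 0.05. Only Fgf15 (1.16) and Fgfr3 (-1.46) in the double KO are filled, and the intervals of Fgf8, Fgf17 and Fgf18 are the widest.

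Fgf15 (ENSMUSG00000031073, mm10 chromosome 7, 144896531 to 144900953, plus strand) was the one of these 4 ligands that changed. Its level was 127, 104, 130, 107 and 62.1 CPM in the 5 double KO libraries, 86.2, 97.1, 66.7 and 74.5 CPM in the 4 Dmrt5 KO libraries, 60.4, 73.0, 59.3, 40.8 and 72.8 CPM in the 5 Dmrt3 KO libraries, and 36.7, 78.0, 44.6 and 31.0 CPM in the 4 WT libraries. Of the 5 double KO libraries, 4 lay above every WT library, and replicate 5 lay below WT replicate 2. The genotype means ran 106 ± 27.2 CPM in the double KO (SD, n = 5), 81.1 ± 13.3 in Dmrt5 KO (n = 4), 61.3 ± 13.2 in Dmrt3 KO (n = 5) and 47.6 ± 21.01 in WT (n = 4). Fgf15 was 2.23-fold higher in the double KO than in WT, a log2 fold change of 1.16 (SE 0.26, 95% interval 0.61 to 1.71, edgeR adjusted p = 0.0109). The Fgf15 call held in 9 of 9 fits that left out 1 double KO or WT library, with a log2 fold change from 0.996 to 1.504. It was lost when these 2 genotypes alone were fitted (1.17, adjusted p = 0.0992).

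In the single knockouts the Fgf15 difference was smaller and not called. The log2 fold change was 0.77 in Dmrt5 KO (SE 0.27, interval 0.20 to 1.34, edgeR adjusted p = 0.248) and 0.37 in Dmrt3 KO (SE 0.26, interval -0.17 to 0.91, edgeR adjusted p = 0.654). Without WT replicate 2 the Dmrt5 KO value was 1.12 and was called (edgeR adjusted p = 0.0268). The test of the difference between the double KO and the sum of both single KO effects gave 0.02 for Fgf15 on the log2 scale (interval -0.74 to 0.78, edgeR adjusted p = 0.985). The values in the double KO and the sum of the single KO values thus differed by less than their error.

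Fgf15 lies beside 2 other Fgf genes on chromosome 7, with its start 31.3 kb beyond the end of Fgf4 and 52.1 kb beyond the end of Fgf3. In the annotation 2 antisense genes, Gm26793 and Gm39119, overlap the span of Fgf15. The library kit does not mark strand, so reads from any shared exon cannot be told apart. Whether exons are shared was not examined.

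Fgf8, Fgf17 and Fgf18, the ligands of the rostral centre, were not called in any of the 7 tests. Fgf8 (ENSMUSG00000025219, chromosome 19, 45736798 to 45742915, minus strand) had 7.78, 6.53, 10.5, 16.9 and 1.60 CPM in the double KO libraries, 9.94, 16.9, 13.9 and 8.64 CPM in the Dmrt5 KO libraries, 10.1, 5.35, 9.64, 4.18 and 12.7 CPM in the Dmrt3 KO libraries, and 4.06, 20.5, 6.01 and 3.68 CPM in the WT libraries. The highest and the lowest Fgf8 library were WT replicate 2 and double KO replicate 5, the libraries with the lowest and the highest gene length slope. The mean level of Fgf8 was 8.67 ± 5.63 CPM in the double KO, 12.3 ± 3.78 in Dmrt5 KO, 8.39 ± 3.54 in Dmrt3 KO and 8.56 ± 8.02 in WT. Its log2 fold change against WT was 0.03 in the double KO (interval -1.15 to 1.21), 0.54 in Dmrt5 KO (-0.70 to 1.78) and -0.02 in Dmrt3 KO (-1.20 to 1.16). These intervals are wide, so a difference as large as that of Fgf15 in the double KO was not detectable for Fgf8 at this spread.

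One WT library set much of the Fgf8 and Fgf17 comparisons. Without WT replicate 2, the log2 fold change of Fgf8 was 0.92 in the double KO, 1.43 in Dmrt5 KO and 0.88 in Dmrt3 KO, all higher than WT and none called (edgeR adjusted p = 0.394, 0.246 and 0.287 in that order). Fgf17 (ENSMUSG00000022101, chromosome 14, 70636203 to 70642268, minus strand) had 45.5, 50.9, 77.1, 76.1 and 8.58 CPM in the double KO, 65.4, 81.4, 53.1 and 41.6 CPM in Dmrt5 KO, 56.6, 12.2, 56.5, 37.8 and 77.3 CPM in Dmrt3 KO, and 24.7, 107, 44.8 and 20.5 CPM in WT. The same pair of libraries, WT replicate 2 and double KO replicate 5, were again the extremes. The log2 fold change of Fgf17 was 0.07 in the double KO (interval -1.13 to 1.26), 0.29 in Dmrt5 KO (-0.97 to 1.55) and -0.04 in Dmrt3 KO (-1.23 to 1.16). Without WT replicate 2 it was 0.79, 1.01 and 0.68 in the same order, with no call.

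Fgf18 (ENSMUSG00000057967, chromosome 11, 33117430 to 33147400, minus strand) was the scarcest of the 4 ligands, with 0.936 to 3.37 CPM in the double KO, 1.53 to 2.94 in Dmrt5 KO, 0.751 to 3.54 in Dmrt3 KO and 1.18 to 2.88 in WT. The genotypes overlapped throughout, and the log2 fold change against WT was -0.01 in the double KO (interval -0.94 to 0.91), 0.29 in Dmrt5 KO (-0.68 to 1.25) and 0.04 in Dmrt3 KO (-0.89 to 0.96).

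**Figure D2:**
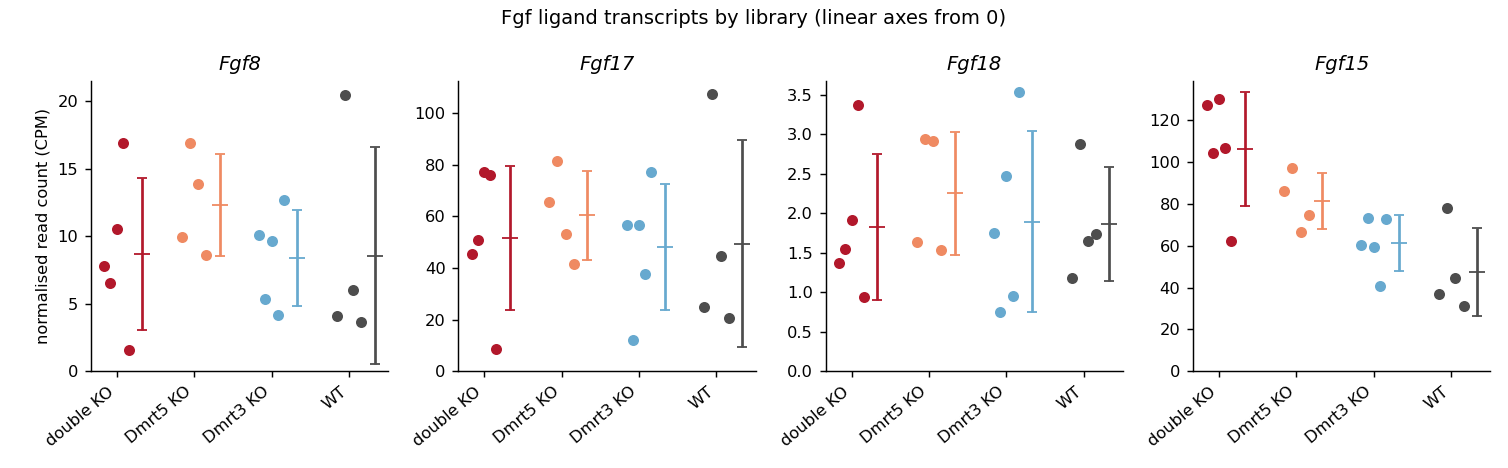
Normalised read counts (CPM, y axis, each from 0) of the 4 ligands in every library, by genotype; dots are libraries in replicate order and the bar beside them is the mean with its SD. Fgf15 runs from a mean of 106 CPM in the double KO to 47.6 CPM in WT, while WT replicate 2 lies far above the other WT libraries for Fgf8 (20.5 CPM) and Fgf17 (107 CPM).

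Fgfr3 (ENSMUSG00000054252, chromosome 5, 33721674 to 33737068, plus strand) was the receptor that changed. Its level was 53.5, 74.8, 63.4, 45.6 and 153 CPM in the double KO libraries, 81.8, 65.1, 98.1 and 114 CPM in the Dmrt5 KO libraries, 119, 118, 145, 165 and 57.3 CPM in the Dmrt3 KO libraries, and 259, 95.9, 164 and 341 CPM in the WT libraries. Of the 5 double KO libraries, 4 lay below every WT library, and replicate 5 lay above WT replicate 2. The means were 78.1 ± 43.3 CPM in the double KO, 89.7 ± 20.99 in Dmrt5 KO, 121 ± 40.4 in Dmrt3 KO and 215 ± 107 in WT. Fgfr3 was 2.76-fold lower in the double KO than in WT, a log2 fold change of -1.46 (SE 0.38, 95% interval -2.26 to -0.66, edgeR adjusted p = 0.0271). In bulk tissue, fewer cells with a transcript and less transcript per cell cannot be told apart.

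The Fgfr3 call was lost without WT replicate 1 (edgeR adjusted p = 0.0705), WT replicate 4 (0.107), or double KO replicate 1 (0.0727), 2 (0.0657) or 3 (0.0681), and when the 2 genotypes alone were fitted (0.134). The log2 fold change of Fgfr3 over the fits without 1 library ran from -1.86 (without double KO replicate 5) to -1.15, below 0 in 9 of 9. Fgfr3 was also below WT, without a call, in Dmrt5 KO (-1.26, SE 0.41, interval -2.12 to -0.41, edgeR adjusted p = 0.199) and in Dmrt3 KO (-0.83, SE 0.38, interval -1.63 to -0.04, edgeR adjusted p = 0.650). The interaction was 0.63 for Fgfr3 (interval -0.50 to 1.76, edgeR adjusted p = 0.654), so the double KO did not differ from the sum of both single KO effects by more than its error. A TEC entry on the opposite strand, G630022F23Rik, overlaps Fgfr3.

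The promoter of Fgfr3 is shown because it is the one changed member for which a RefSeq promoter window was at hand. RefSeq (GRCm38.p6) gave windows for 3 of the 7 genes, Fgf18, Fgfr2 and Fgfr3. The first Fgfr3 window, chr5:33721474-33721773 on the plus strand, runs 5′ to 3′ from 250 bases before to 50 after the start that RefSeq gives, which lies downstream of the GENCODE start above, with each CG pair in capitals.
Fgfr3 promoter: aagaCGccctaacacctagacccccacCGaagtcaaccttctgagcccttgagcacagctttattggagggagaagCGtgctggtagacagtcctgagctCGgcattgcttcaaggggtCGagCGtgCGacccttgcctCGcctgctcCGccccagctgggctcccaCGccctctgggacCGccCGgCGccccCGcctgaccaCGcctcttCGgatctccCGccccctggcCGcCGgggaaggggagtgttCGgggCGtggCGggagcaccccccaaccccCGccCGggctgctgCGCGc
The window held 26 CG pairs and 69.7% G and C, against medians of 7 and 52.7% over 32851 RefSeq promoter windows, of which 16.9% held as many CG pairs. The letters TACANTGT, a core of the site bound by Dmrt proteins, were in none of the windows of these 3 genes on either strand, and were in 2.69% of all windows. The homeodomain core TAATTA was likewise not found there and was in 5.29% of all windows. Nothing about binding follows from letters in windows of this length.

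Fgfr1 and Fgfr2 were not called in any of the 7 tests. Fgfr1 (ENSMUSG00000031565, chromosome 8, 25513654 to 25575718, plus strand) had 143, 173, 180, 251 and 222 CPM in the double KO, 158, 171, 205 and 188 CPM in Dmrt5 KO, 167, 127, 173, 182 and 200 CPM in Dmrt3 KO, and 205, 167, 171 and 240 CPM in WT. Its genotypes overlapped closely, with a log2 fold change of -0.02 in the double KO (interval -0.36 to 0.33), -0.11 in Dmrt5 KO (-0.48 to 0.25) and -0.21 in Dmrt3 KO (-0.56 to 0.14). The intervals of Fgfr1 and Fgfr2 were narrower than those of the other 5 genes. An antisense gene, Gm16159, overlaps Fgfr1.

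Fgfr2 (ENSMUSG00000030849, chromosome 7, 130162451 to 133123350, minus strand) had 78.9, 73.4, 88.3, 98.9 and 125 CPM in the double KO, 74.0, 70.4, 93.0 and 79.5 CPM in Dmrt5 KO, 76.9, 87.3, 94.0, 101 and 90.1 CPM in Dmrt3 KO, and 110, 82.8, 97.7 and 136 CPM in WT. The log2 fold change was -0.20 in the double KO (interval -0.53 to 0.14), -0.43 in Dmrt5 KO (-0.78 to -0.07, edgeR adjusted p = 0.319) and -0.25 in Dmrt3 KO (-0.58 to 0.09). The annotated span of Fgfr2 overlaps 69 other genes, and reads of genes on either strand within it may be shared where exons overlap, which was not examined. Its exon length is also uncertain, at 10328 bases over all transcripts and 4429 for the longest.

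**Figure D3:**
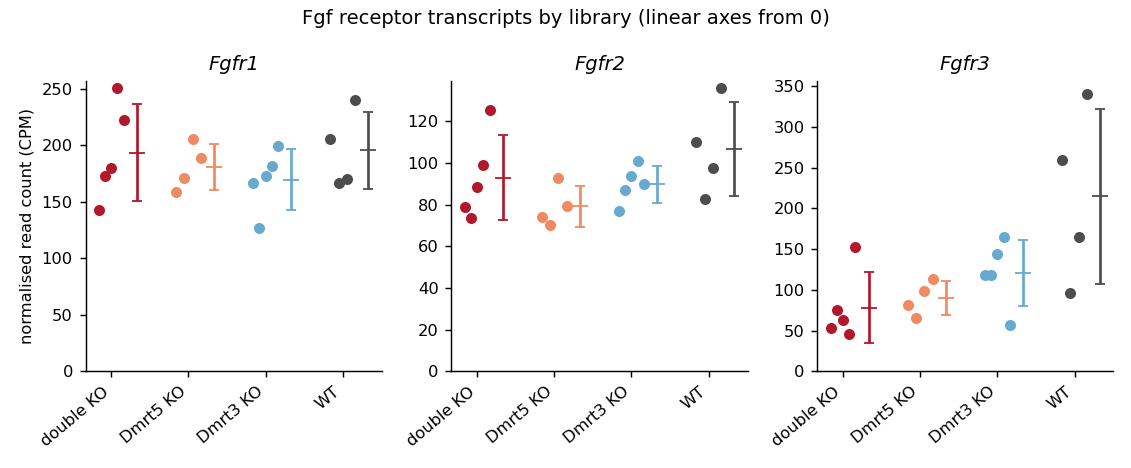
Normalised read counts (CPM, y axis, each from 0) of the 3 receptors in every library, by genotype; dots are libraries in replicate order and the bar beside them is the mean with its SD. Fgfr3 has means of 78.1 CPM in the double KO and 215 CPM in WT, while Fgfr1 and Fgfr2 overlap between all genotypes.

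The knockouts were also compared with each other. Against Dmrt3 KO, the double KO had 0 of 7 Fgf genes called by edgeR, 1 by DESeq2 and 1 with an unadjusted p under 0.05, where 3.7% of all genes were called by edgeR and 17.4% had such an unadjusted p. The nearest was Fgf15, with a log2 fold change of 0.79 (SE 0.24, interval 0.28 to 1.30, edgeR adjusted p = 0.0879, DESeq2 adjusted p = 0.0336). It was called without double KO replicate 5 (0.93, edgeR adjusted p = 0.0311). Fgfr3 stood at -0.63 in the same comparison (interval -1.38 to 0.13, edgeR adjusted p = 0.366). Against Dmrt5 KO, the double KO had 0 of 7 called by both tools and 0 with an unadjusted p under 0.05, where 0.333% of all genes were called and 4.71% had such a p, with Fgf15 at 0.39 (interval -0.15 to 0.93) and Fgfr3 at -0.20 (interval -0.999 to 0.597). Dmrt5 KO against Dmrt3 KO likewise had 0 of 7 by both tools and 0 unadjusted, where the shares of all genes were 0.228% called and 4.64% unadjusted. The interaction had 0 of 7 by both tools and 1 unadjusted (Fgfr2, 0.48, interval 0.00 to 0.95, edgeR adjusted p = 0.540), where the shares of all genes were 0.142% called and 9.22% unadjusted.

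The gene length slope moved with all 3 receptors and, in the other direction, with the ligands, most weakly with Fgf18. Over the 18 libraries, which share library preparation and depth effects, Pearson's r of log2 CPM with the slope was 0.80 for Fgfr2 (Spearman's rho 0.67), 0.71 for Fgfr1 (0.82), 0.47 for Fgfr3 (0.33), -0.41 for Fgf15 (-0.30), -0.72 for Fgf8 (-0.51), -0.66 for Fgf17 (-0.55) and -0.31 for Fgf18 (-0.24). After the genotype means were removed, r was 0.92 for Fgfr2, 0.79 for Fgfr3 and -0.91 for Fgf15. The 2 libraries with a slope farthest from the median were double KO replicate 5 and WT replicate 4. Without these 2, and with WT replicate 2 kept, the pooled r was 0.55 for Fgfr2, 0.62 for Fgfr1 and 0.16 for Fgfr3. For the ligands it was -0.22 (Fgf15), -0.39 (Fgf8), -0.25 (Fgf17) and -0.13 (Fgf18). With the slope in the model, Fgf15 in the double KO against WT was 1.32 (edgeR adjusted p = 1.66e-06) and Fgfr3 was -1.58 (0.000183). Leaving out the 3 libraries of extreme slope gave 1.54 for Fgf15 (0.000741) and -1.82 for Fgfr3 (0.00388). Of these 3, WT replicate 2 had the most Fgf15 and least Fgfr3 of WT, and WT replicate 4 the reverse. Double KO replicate 5 had the least Fgf15 and most Fgfr3 of its genotype, so their removal by itself shifts both differences. The part of the slope in the genotype differences was not tested.

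With the slope as a covariate, more of the family was called, as were more of all genes: 3170 of 16236 in the double KO against WT, 544 in Dmrt5 KO against WT, 865 in the double KO against Dmrt3 KO and 121 in the double KO against Dmrt5 KO. In Dmrt5 KO against WT, Fgf15 was 0.69 (edgeR adjusted p = 0.00433), Fgfr2 was -0.32 (0.0287) and Fgfr3 was -0.92 (0.0446). Fgfr2 was -0.27 (0.015) in the double KO against WT, beside the calls of Fgf15 and Fgfr3. Against Dmrt3 KO, Fgf15 was 1.11 (1.09e-05) and Fgfr3 was -1.15 (0.00463) in the double KO, and against Dmrt5 KO Fgf15 was 0.64 (0.0123).

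**Figure D4:**
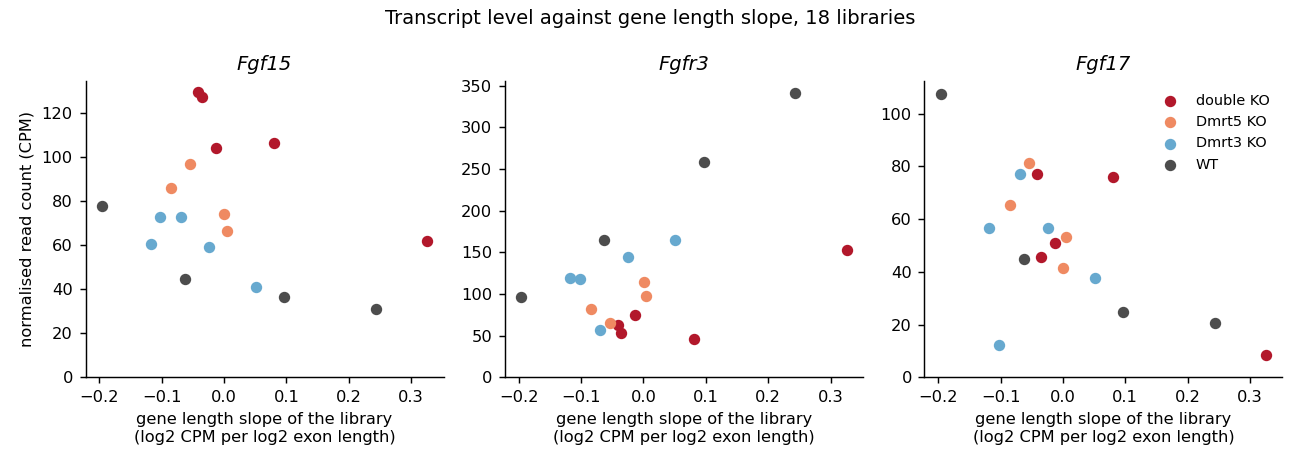
Normalised read count (CPM, y axes from 0) of Fgf15, Fgfr3 and Fgf17 against the gene length slope of each library (x axis, log2 CPM per log2 exon length), coloured by genotype. Double KO replicate 5, at the right, is the lowest of its genotype for Fgf15 (62.1 CPM) and Fgf17 (8.58 CPM) and the highest for Fgfr3 (153 CPM), and WT replicate 2, at the left, is the highest WT library for Fgf15 and Fgf17.

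Markers of several other tissues moved with the same genotypes. The counts of markers called stand beside 6.23% of all tested genes called in the double KO against WT and 1.03% in Dmrt5 KO. Of 5 markers of the medial ganglionic eminence, a ventral forebrain region, 5 rose in the double KO, and their sum ran from 278 to 702 CPM there, 273 to 409 in Dmrt5 KO, 61.8 to 341 in Dmrt3 KO and 87.4 to 179 in WT, with none at 0. Of 7 markers of the lateral ganglionic eminence, 6 rose in the double KO and 4 in Dmrt5 KO. Of 9 markers of the cortical hem, a caudomedial signalling centre, 6 fell in the double KO, and their sum was 38.0 to 160 CPM there, 79.9 to 194 in Dmrt5 KO, 169 to 267 in Dmrt3 KO and 211 to 307 in WT, with at most 1 marker at 0 in a double KO library. Of 5 markers of the choroid plexus, which forms beside the hem, 4 fell in the double KO and 4 in Dmrt5 KO, and their sum was 70.2 to 133 CPM in the double KO, 87.0 to 101 in Dmrt5 KO, 171 to 441 in Dmrt3 KO and 164 to 348 in WT, with none at 0. These choroid plexus sums hide larger falls of single markers. The log2 fold changes of the 5 ran from -6.92 to 0.54 in the double KO (median -3.54), with 1 marker not called. In Dmrt5 KO they ran from -4.79 to 0.29 (median -1.70), also with 1 not called. Ttr had a mean of 1.30 CPM in the double KO, 5.47 in Dmrt5 KO and 152.5 in WT. The double KO had 5 of the 7 pallial progenitor genes called lower and 1 higher, and Dmrt5 KO had 2 called lower. Of 8 markers of mesenchyme and meninges, 0 were called in any KO against WT, though 8 of 8 lay below WT in the double KO. They summed to 27.7 to 2009 CPM in the double KO, 402 to 1635 in Dmrt5 KO, 544 to 2648 in Dmrt3 KO and 729 to 2352 in WT. With a mesenchyme score in the model, Fgf15 stood at 1.33 (edgeR adjusted p = 0.0257) and Fgfr3 at -2.19 (0.00897) in the double KO against WT. The part of the ganglionic eminence, hem, choroid plexus and pallial markers in the Fgf15 and Fgfr3 results was not tested.

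Levels were ordered between genes as CPM per kilobase of exon. The order of the means in the double KO was Fgf15 (34.7), Fgf17 (30.6), Fgfr1 (19.6), Fgfr3 (10.9), Fgfr2 (9.001), Fgf8 (6.42) and Fgf18 (1.54), and each gene's libraries overlapped those of its neighbour. In Dmrt5 KO it was Fgf17 (35.7), Fgf15 (26.5), Fgfr1 (18.3), Fgfr3 (12.53), Fgf8 (9.14), Fgfr2 (7.67) and Fgf18 (1.90), with no overlap between Fgf15 and Fgfr1, Fgfr1 and Fgfr3, or Fgfr2 and Fgf18. In Dmrt3 KO the order was Fgf17 (28.5), Fgf15 (20.03), Fgfr1 (17.2), Fgfr3 (16.9), Fgfr2 (8.70), Fgf8 (6.22) and Fgf18 (1.60), with a gap between Fgf8 and Fgf18 alone. In WT it was Fgfr3 (30.0), Fgf17 (29.2), Fgfr1 (19.8), Fgf15 (15.6), Fgfr2 (10.3), Fgf8 (6.34) and Fgf18 (1.57), again with a gap between Fgf8 and Fgf18 alone. The order depended on the length used. Per kilobase of the longest transcript, Fgf15 came first in the double KO (58.6), Dmrt5 KO (44.8) and Dmrt3 KO (33.9), and Fgfr3 first in WT (50.7), with Fgfr1 next in each genotype (38.4, 35.8, 33.6 and 38.8 in the same order). Fgfr3 then stood at 18.4 in the double KO, the fifth of the 7. With both lengths Fgf15 had the highest mean in the double KO and Fgfr3 in WT. Per kilobase of exon, the libraries of each overlapped those of Fgf17, the next gene. Overlap was not examined per kilobase of the longest transcript.

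Most of the 7 genes varied along one shared direction across libraries, with ligands on one side and Fgfr2 and Fgfr3 on the other. Among the 3 rostral ligands, r of log2 CPM over the 18 libraries was 0.89 for Fgf8 and Fgf17, 0.81 for Fgf8 and Fgf18 and 0.79 for Fgf17 and Fgf18, and 0.89, 0.82 and 0.78 after genotype means were removed. Fgf15 and Fgfr3 had r -0.92, and -0.87 after genotype means were removed. On that second scale r was also -0.87 for Fgf8 and Fgfr3, -0.78 for Fgf17 and Fgfr3, -0.81 for Fgf15 and Fgfr2, and 0.81 for Fgf8 and Fgf15. Fgfr1 stood apart from the rostral ligands, with values of -0.11 for Fgf8, -0.05 for Fgf17 and 0.36 for Fgf18. These values describe 18 libraries that share the gene length slope.

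The genes most like each member were named by Pearson's r over the 18 libraries, leaving out genes whose log2 CPM averaged under 1. For Fgf17 they were Fgf8 (0.89), Etv4 (0.86), a transcription factor gene induced by Fgf signalling, and Naglu (0.86). For Fgf18 they were Spry1 (0.88), which encodes an Fgf feedback inhibitor, Pmaip1 (0.87) and Cyp27a1 (0.86). For Fgf8 they were Epcam (0.90), Ctsl (0.90) and Fgf17 (0.89). Epcam is 1 of the 5 surface ectoderm markers used here, and its r with Fgf8 was 0.95 after genotype means were removed. For Fgf15 they were Mirg (0.97), Pnoc (0.95) and As3mt (0.94). For the receptors they were Syt7 (0.97), Nckap5 (0.92) and Kbtbd11 (0.92) beside Fgfr3, Dusp3 (0.96), Glis2 (0.94) and Snx9 (0.94) beside Fgfr1, and Atl3 (0.95), Hs6st2 (0.95) and Thap12 (0.94) beside Fgfr2.

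Of 14 other secreted ligands, 3 had counts enough to test and 11 had at most 15 counts, or 0.598 CPM, in any library. Fgf4, which lies between Fgf3 and Fgf15 on chromosome 7, was among these 11, with 0 counts in every double KO library. Fgf3, a ligand of the early nervous system, rose in the double KO. Its level was 7.96 to 15.5 CPM in the double KO (11.5 ± 3.55), 7.56 to 10.9 in Dmrt5 KO (9.02 ± 1.66), 5.22 to 7.98 in Dmrt3 KO (6.46 ± 1.34) and 3.15 to 6.46 in WT (4.97 ± 1.36). The double KO and WT libraries of Fgf3 thus did not overlap, as was so for 5.97% of all tested genes. Fgf3 was 2.33-fold higher in the double KO than in WT (log2 1.22, SE 0.25, edgeR adjusted p = 0.00534). It was called in 9 of 9 fits without 1 library and lost when the 2 genotypes alone were fitted (0.0691). Fgf3 was not called in Dmrt5 KO (0.86, edgeR adjusted p = 0.144) or Dmrt3 KO (0.38, 0.650). Fgf9, a ligand of neural and other tissues, was 1.797-fold higher in the double KO (4.16 ± 1.395 CPM, against 2.32 ± 0.392 in WT, edgeR adjusted p = 0.0361). The Fgf9 call held in only 2 of 9 fits without 1 library, and was lost without WT replicate 1, 2, 3 or 4 or double KO replicate 1, 2 or 5 (adjusted p 0.0543 to 0.111). Fgf7 was not called. Over all tested genes, 2.42% rose in the double KO. Across these 3 ligands the median log2 fold change in the double KO was 0.85, beside 0.01 over all genes.

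Of the 4 Fgf homologous factors, which stay inside the cell and act on sodium channels rather than on Fgf receptors, Fgf14 rose in the double KO to 15.6 ± 5.90 CPM, against 6.76 ± 1.62 in WT (log2 1.21, edgeR adjusted p = 0.00653). Its call was lost with the mesenchyme score in the model (0.71, 0.145) and with the 2 genotypes alone (1.21, 0.0602). Fgf11, Fgf12 and Fgf13 stood at log2 fold changes of 0.60, 0.89 and 0.17 without a call, where 2.42% of all tested genes rose.

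Of 7 other receptors and co-receptors, 6 were tested, 2 fell in the double KO and 1 in Dmrt5 KO. Over all tested genes, 3.81% fell in the double KO and 0.69% in Dmrt5 KO. Flrt3, a transmembrane protein that binds Fgf receptors, was at 39.5 ± 7.10 CPM in the double KO, 37.1 ± 1.01 in Dmrt5 KO, 58.2 ± 11.0 in Dmrt3 KO and 77.6 ± 15.8 in WT. Its log2 fold change was -0.97 in the double KO (SE 0.16, edgeR adjusted p = 0.00119) and -1.06 in Dmrt5 KO (SE 0.17, 0.00567), called in 9 of 9 and 8 of 8 fits without 1 library. Flrt1, of the same family, was at 3.50 ± 1.52 CPM in the double KO, against 8.88 ± 4.48 in WT (log2 -1.34, edgeR adjusted p = 0.0183). The Flrt1 call was lost without WT replicate 1 or 4 or double KO replicate 1, 2 or 3 (0.0510 to 0.0776). The remaining receptors were not called: Fgfr4 was at 0.740 CPM in the double KO and 0.649 in WT, and Fgfrl1, which lacks a kinase domain, at 43.0 and 42.1 CPM.

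**Figure D5:**
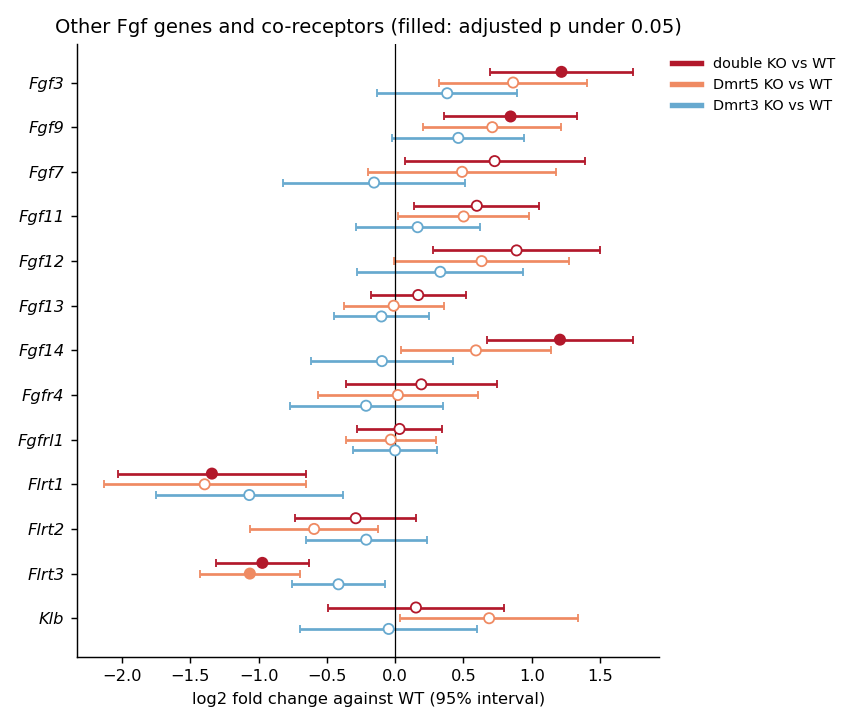
Log2 fold change against WT (x axis) with 95% intervals for the other tested Fgf genes and the other receptors and co-receptors; filled points had an adjusted p under 0.05. Filled points of the double KO are Fgf3, Fgf9 and Fgf14 right of 0 and Flrt1 and Flrt3 left of it, and Flrt3 is the only filled point in Dmrt5 KO.

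Of 21 genes of heparan sulfate synthesis and Fgf binding proteins, 19 were tested. Sulf1 alone was called in the double KO, where 6.23% of all genes were called, so that the list's count was near the background. Sulf1, a sulfatase that trims heparan sulfate outside the cell, stood at 19.0 ± 10.7 CPM in the double KO, 22.3 ± 8.43 in Dmrt5 KO, 57.3 ± 9.56 in Dmrt3 KO and 76.7 ± 31.8 in WT. It was 4.05-fold lower in the double KO (log2 -2.02, SE 0.34, edgeR adjusted p = 0.00118), called in 9 of 9 fits without 1 library. In Dmrt5 KO it was 3.45-fold lower (log2 -1.79, SE 0.36, edgeR adjusted p = 0.0196), a call lost without WT replicate 1 or 4 or Dmrt5 KO replicate 1, 2 or 5 (0.0511 to 0.0974). The list median was -0.25 in the double KO and -0.18 in Dmrt5 KO.

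Downstream of the receptors, 1 adaptor gene and 1 target were called in the double KO, counts near the 6.23% of all genes. Of 8 adaptor genes, Frs3, which couples Fgf receptors to Ras, rose in the double KO to 24.4 ± 5.10 CPM, against 15.4 ± 2.36 in WT (log2 0.67, edgeR adjusted p = 0.0186). Its call was lost without WT replicate 4 or double KO replicate 1 or 2 (0.0506 to 0.0652). Of 12 targets and feedback inhibitors, 11 were tested and Spred3, an inhibitor of the Ras-MAP kinase route, rose in the double KO to 60.1 ± 12.7 CPM, against 40.7 ± 7.66 in WT (log2 0.56, edgeR adjusted p = 0.0409). The Spred3 call was lost without WT replicate 1, 2 or 3 or double KO replicate 2, 4 or 5 (0.0534 to 0.159). The targets Etv4 and Etv5 stood at 0.39 and 0.60 in the double KO without a call (edgeR adjusted p = 0.720 and 0.0637), as did Dusp6 at 0.45 and Spry2 at 0.58. The median log2 fold change of the 11 targets was 0.39 in the double KO, 0.34 in Dmrt5 KO and 0.00 in Dmrt3 KO.

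Of 10 regulators of the rostral patterning centre, 9 were tested, 4 rose and 1 fell in the double KO, and 1 rose and 1 fell in Dmrt5 KO. Over all tested genes, 6.23% were called in the double KO against WT and 1.03% in Dmrt5 KO against WT. Six3, which promotes rostral forebrain fate, rose to 159 ± 22.0 CPM in the double KO and 114 ± 9.32 in Dmrt5 KO, against 56.5 ± 7.12 in WT (log2 1.49 and 1.01, edgeR adjusted p = 8.59e-07 and 0.000863). Emx2, a caudal regulator known to limit Fgf8, fell to 66.97 ± 16.1 CPM in the double KO and 118 ± 10.6 in Dmrt5 KO, against 206 ± 38.8 in WT (log2 -1.62 and -0.80, edgeR adjusted p = 1.19e-05 and 0.0404). The Emx2 call in Dmrt5 KO held in 1 of 8 fits without 1 library and was lost in all others except that without WT replicate 4 (0.0663 to 0.154). Pax6, a regulator of cortical progenitors, rose 1.81-fold in the double KO (edgeR adjusted p = 0.00208). Shh, the ventral signal, rose to 12.6 ± 3.61 CPM in the double KO, against 3.24 ± 0.880 in WT (edgeR adjusted p = 0.00979). The Shh call was lost with the mesenchyme score in the model (0.119) and without the 3 libraries of extreme slope (0.152). Sp8, an activator of Fgf8 and named here after its value was seen, was the other gene that rose in the double KO (log2 0.77, edgeR adjusted p = 0.0335). Emx2 and Pax6 also stand in the pallial list and Shh in the list for the medial ganglionic eminence. In the double KO, 6 of 7 markers of the lateral and 5 of 5 of the medial ganglionic eminence rose too. Their part in the values of these regulators was not tested. In Dmrt3 KO the log2 fold changes of the 9 regulators ran from -0.48 to 0.36, without a call.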

How the data were processed

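The deposited files hold unnormalised whole-number read counts for each Ensembl gene, in 1 file a library. The tools named in the submitters' processing notes are featureCounts 1.4.6-p1, STAR 2.3.0e, DESeq2 1.8.2, FastQC 0.10.1, CASAVA 1.8.2 and bcl2fastq, and the build is mm10. Per the labels' protocols, RNA was extracted with RNeasy and libraries were made with TruSeq RNA v2, which does not mark strand. The sources used here give neither the annotation nor the strand setting of the counting. Names, coordinates and exon lengths come from GENCODE M21 (GRCm38, the assembly of mm10). Identifiers matched for 36602 of 38355 genes, and the unmatched held 0.397% of counts.

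Counts were analysed with edgeR 4.0.16 (R 4.3.3). After filterByExpr by genotype 16236 genes were tested, with TMM scaling, in 1 quasi-likelihood fit of all 18 libraries with a mean per genotype. CPM values were computed here from the deposited counts. Two-sided p-values had Benjamini-Hochberg adjustment across the 16236 genes, with calls under 0.05, and "rose" or "fell" means called. The SE comes from the fold change and its F statistic, and intervals are 95%. The 7 tests were each KO against WT, each pair of KOs, and the interaction, the double KO minus both single KOs plus WT on the log2 scale. For correlations, log2 CPM had a prior count of 2.

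Named genes were the 7 members and, from each list, up to 4 called against WT by lowest adjusted p in the double KO, and the 3 genes most like each member. The members and lists were chosen with earlier results of these data known. Alternatives were RLE size factors in edgeR, DESeq2 1.42.0, no filter, the genotypes compared alone and a replicate block. Further ones were a mesenchyme score, the gene length slope, longest transcript length, and leaving out each library. Leaving out 3 libraries of extreme slope was added after seeing the data. The labels do not say whether libraries come from separate embryos, so p-values measure the spread between these libraries, which may be technical. Spry3 was not analysed here.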

Additional observations from a re-analysis of the deposited data

Results flagged for a closer look

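In 28 sets of libraries (7 genes in 4 genotypes), the gap between the highest or lowest library and the nearest other was set against the range of the set, and 2 sets passed Dixon's critical value. Chance alone passes about 1 in 20 such sets. Fgf8 in WT was at 20.5 CPM in replicate 2, against 3.68 to 6.01 CPM in the other WT libraries. Fgfr3 in the double KO was at 153 CPM in replicate 5, against 45.6 to 74.8 CPM in the other libraries of that genotype. WT replicate 2 had the lowest gene length slope of the 18 libraries (-0.20) and double KO replicate 5 the highest (0.33). Double KO replicate 5 also had the lowest summed level of the 8 mesenchyme markers (27.7 CPM). The same 2 libraries were the extremes of the 18 for 5 summed erythroid (red blood cell) markers. WT replicate 2 was the highest (15620 CPM) and double KO replicate 5 the lowest (1080 CPM). For 5 surface ectoderm markers, WT replicate 2 was the highest of WT (14.1 CPM). Double KO replicate 5 was the lowest of the 18 libraries there (3.47 CPM). The part of these library features in both values was not tested.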

How the results depend on the processing

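For the 7 genes in the double KO against WT, scaling by RLE size factors and DESeq2 kept both calls (DESeq2 adjusted p = 0.000507 for Fgf15 and 0.00432 for Fgfr3). The number of the 7 genes called in that comparison was 0 with only the genotypes compared, and 1 to 2 over the fits without 1 library. In Dmrt5 KO against WT it was 3 with the gene length slope, 1 without the 3 libraries of extreme slope, and 0 to 1 over the fits without 1 library. Against Dmrt3 KO the double KO had 1 with DESeq2, 1 with the replicate block, 2 with the slope, 2 without those 3 libraries, and 0 to 1 without 1 library. Against Dmrt5 KO the double KO had 1 with the slope. Over all tested genes, the double KO against WT called 1012, but 3170 with the slope, 1535 with DESeq2, 637 without the 3 libraries, 422 with the mesenchyme score and 368 with only the genotypes compared. Dmrt5 KO against WT called 167, but 544, 425 and 380 with the slope, DESeq2 and the replicate block, and 89 with only the genotypes compared. Dmrt3 KO against WT called 2, but 89, 57 and 49 with the slope, DESeq2 and without the 3 libraries. The double KO against Dmrt3 KO called 600, but 963 with DESeq2, 265 with the mesenchyme score and 358 with only the genotypes compared, and against Dmrt5 KO 54, but 107 with DESeq2, 121 with the slope and 21 with only the genotypes compared. Dmrt5 KO against Dmrt3 KO called 37, but 140, 121, 105 and 77 with DESeq2, the slope, only the genotypes compared and without the 3 libraries, and the interaction 23, but 125 with DESeq2. Leaving out 1 library moved these counts by over 1.5 times in several cases. The double KO against WT called 2006, and against Dmrt3 KO 1437, without double KO replicate 4, and 396 against Dmrt3 KO without Dmrt3 KO replicate 1. Against Dmrt5 KO it called 34 without Dmrt5 KO replicate 4. Dmrt5 KO against WT called 78, 54, 100 and 72 without Dmrt5 KO replicate 1, 2, 4 and 5, and 90, 105 and 83 without WT replicate 1, 3 and 4. Dmrt5 KO against Dmrt3 KO called 12 to 17 without any 1 Dmrt5 KO library or Dmrt3 KO replicate 1, 3 or 4. Dmrt3 KO against WT called 6 and 4 without WT replicate 2 and 4, and the interaction 15 without Dmrt3 KO replicate 3 or Dmrt5 KO replicate 1 or 5. Calls of other genes in the double KO against WT were lost with the mesenchyme score for Frs3 (adjusted p = 0.123), Spred3 (0.209), Flrt1 (0.0621) and Fgf9 (0.304), with only the genotypes compared for Frs3 (0.170), Spred3 (0.240), Flrt1 (0.148) and Fgf9 (0.220), without the filter for Fgf9 (0.0512), with the replicate block for Spred3 (0.0531), and without the 3 libraries for Spred3 (0.134) and Fgf9 (0.240). In Dmrt5 KO against WT the calls of Sulf1 and Emx2 were lost with only the genotypes compared (0.0611 and 0.0706) and without the 3 libraries (0.0847 and 0.0506), and that of Emx2 with the block (0.0694). With the longest transcript as length, the WT levels were 38.8 (Fgfr1), 50.7 (Fgfr3), 26.3 (Fgf15) and 24.1 (Fgfr2) CPM per kilobase.

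The labels share replicate numbers but do not say what they mark. The 24 pairs of libraries with the same number had correlations of their deviations from -0.50 to 0.78 (median 0.33), of which 16 were over 0.1. The 97 pairs with different numbers ran from -0.81 to 0.78 (median -0.17), of which 37 were over 0.1. Same-numbered libraries thus deviated together more often, but not in every pair. Of 18 libraries, 6 correlated best with their own number, and the number that chance would give was not computed. The pairs also share libraries. Pairing is at most a hint from the data and was not taken as the design. With the replicate block, Fgf15 was 1.26 (edgeR adjusted p = 0.00407) and Fgfr3 -1.51 (0.0389) in the double KO against WT, and Fgf15 was 0.80 (0.0476) against Dmrt3 KO. The block turned the sign of Fgf8 (0.33), Fgf17 (0.28) and Spred3 (-0.033) in Dmrt3 KO against WT, of Fgf8 (-0.090) and Fgf17 (-0.057) in the double KO against Dmrt3 KO, and of the Fgf15 interaction (-0.078).

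Other changes of sign were all among values that were not called, with the causes not tested. In Dmrt3 KO against WT they were, with the slope, Fgf18 (-0.069) and Fgf14 (0.081). With the mesenchyme score they were Fgf18 (-0.0065) and Spred3 (-2.72e-05). Spred3 was -0.0084 without the filter and -0.0024 with only the genotypes compared. Without the 3 libraries Fgf8 was 0.75 and Fgf17 0.48. For the double KO against WT, Fgf18 was 0.069 with the slope, 0.68 with the mesenchyme score, 0.014 without the filter and 0.56 without the 3 libraries, and Fgfr1 was 0.11 with the mesenchyme score, 0.0039 without the filter and 0.0071 without the 3 libraries. For the double KO against Dmrt3 KO, Fgf18 was 0.14, 0.69 and 0.13 and Fgfr2 -0.17, -0.0027 and -0.074 with the slope, with the mesenchyme score and without the 3 libraries. Between the double KO and Dmrt5 KO, Fgf17 was 0.15, 0.23 and 0.065 in that order, Fgfr1 -0.038 with the slope and Fgf18 0.16 with the mesenchyme score. The interactions were 0.020 (Fgf8), 0.27 (Fgf17) and -0.23 (Fgfr3) with the slope, 0.34 (Fgf17) and 0.17 (Fgf18) with the mesenchyme score, and -0.055 (Fgf15) without the 3 libraries.

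Over the fits without 1 library, these uncalled values crossed 0. In Dmrt3 KO against WT the ranges were -0.28 to 0.88 (Fgf8), -0.30 to 0.68 (Fgf17), -0.31 to 0.32 (Fgf18), -0.12 to 0.084 (Spred3), -0.22 to 0.019 (Fgf14) and -0.13 to 0.60 (Shh). The ranges in the double KO against WT were -0.36 to 0.92 (Fgf8), -0.20 to 0.79 (Fgf17), -0.36 to 0.27 (Fgf18) and -0.13 to 0.10 (Fgfr1). Those of the double KO against Dmrt3 KO were -0.35 to 0.32 (Fgf8), -0.14 to 0.38 (Fgf17), -0.39 to 0.30 (Fgf18) and -0.082 to 0.12 (Fgfr2), and against Dmrt5 KO -0.42 to 0.048 (Fgf17) and -0.011 to 0.19 (Fgfr1). For the interaction they were -0.91 to 0.083 (Fgf17), -0.33 to 0.19 (Fgf15) and -0.68 to 0.011 (Fgf18). The spread between libraries limits what could be seen for Fgf8, Fgf17 and Fgf18, and counting error also for Fgf18.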
